A study of Homo sapiens with 8 samples.

Results

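The SR splicing factor family was examined in 2 lines of epithelial ovarian cancer (EOC), MDAH and SKOV3, with and without silencing of SFPQ, an RNA- and DNA-binding protein of the nucleus. The members were the 10 genes SRSF1, SRSF2, SRSF3, SRSF4, SRSF5, SRSF6, SRSF7, SRSF9, SRSF10 and SRSF11, of 20503 genes that the probes of the array could be assigned to. A probe was taken as a member if its RefSeq accession belonged to one of these genes, and each probe was followed on its own. This gave 19 probes, and all 19 were well above background on all 8 arrays, none was saturated or marked as an outlier, and all entered the tests. Total RNA was labelled with Cy3 and hybridized to 8 single-colour Agilent arrays. Each line had 2 control arrays and 2 arrays of SFPQ-silenced cells, of which 1 carried sh-SFPQ#2 and the other sh-SFPQ#3. The MDAH line is MDAH-2774, and the shRNAs were delivered by lentiviral vectors. The labels give both controls of a line the control shRNA, but in the supplementary methods 1 of them is parental, and controls are therefore named here only as cells not silenced. No drug treatment is named for these samples.

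SR proteins bind exonic enhancers in pre-mRNA through RNA recognition motifs and recruit the splicing machinery through a tail rich in serine and arginine. Kinases of the SRPK and CLK families phosphorylate that tail and so set where in the nucleus and how actively these proteins work. Many SR genes also limit their own expression, since they can splice in an ultraconserved exon with a stop codon that sends the transcript to nonsense-mediated decay. A probe of an SR gene may therefore bind productive transcripts, decayed ones or both, and here the transcripts of a probe are known only through its accession. The reference table also lists pseudogenes for 7 of the 10 genes (all but SRSF4, SRSF5 and SRSF7), and cross-hybridization with these could not be examined because probe sequences were not used here.

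The silenced gene was examined first. The log2 level of SFPQ (NM_005066), given like all levels below relative to the 75th percentile of its array, was 3.64 and 3.91 in MDAH controls and 2.45 and 2.10 with sh-SFPQ#2 and sh-SFPQ#3. In SKOV3 cells it was 4.84 and 4.66 in controls and 3.01 and 2.48 with sh-SFPQ#2 and sh-SFPQ#3. SFPQ was thus lower on each silenced array than on both controls of its line, and averaged over both lines the log2 level fell by 1.75 (standard error, SE, 0.17, adjusted p = 0.0054 from limma). The epithelial markers EPCAM, KRT7, KRT8, KRT18 and KRT19 and the ovarian carcinoma marker PAX8 were well above background on all 8 arrays, CDH1 on 6, WT1 on 4 and MUC16 on 2. Of the markers of other cells, COL3A1 was well above background on no array, PECAM1 on 1, DCN on 4 and COL1A1 and PTPRC on 8. COL1A1, a fibroblast collagen, had log2 levels of -0.89 and -0.58 in MDAH controls, 0.20 and 0.61 in silenced MDAH cells, -2.16 and -2.76 in SKOV3 controls and -1.50 and -0.96 in silenced SKOV3 cells. The summed level of the 3 fibroblast markers, as multiples of the 75th percentile, was 0.567 to 0.686 in MDAH controls, 1.17 to 1.56 in silenced MDAH cells, 0.233 to 0.304 in SKOV3 controls and 0.651 to 0.746 in silenced SKOV3 cells. COL1A1 and this sum, of which COL1A1 was the largest part on every array, moved with the groups in both lines. DCN separated control from silenced arrays only in SKOV3 cells. PAX8 and EPCAM were lower on silenced than on control arrays in MDAH cells and higher in SKOV3 cells. KRT7, KRT18 and WT1 separated the groups only in MDAH cells, and KRT19, CDH1 and MUC16 only in SKOV3 cells. KRT8 overlapped in both lines. The levels of PTPRC and PECAM1 overlapped between control and silenced arrays in both lines. The part of these markers in the results was not tested. The 75th percentile of the signal ranged from 387 to 496 on 7 arrays and was 244 on the array of MDAH cells with sh-SFPQ#3. All arrays lay on 1 slide, each line in its own row with the controls before the silenced samples, so the effect of a group and that of its place on the slide cannot be told apart. The silenced samples of a line carried different shRNAs, so that their spread holds any difference between the shRNAs, whereas nothing says that the controls of a line came from separate cultures. The p-values measure only the spread between these arrays, which in the controls may be technical.

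Of the 19 SR probes 1, that of SRSF4, was called after silencing of SFPQ, in MDAH cells and averaged over both lines. Its calls rested on few arrays, as given below, and the other probes are not shown to be unchanged. In MDAH cells 1 probe passed an adjusted p of 0.05 in limma, fitted over all 29021 probes tested, of which 2.69% passed. In SKOV3 cells none of the 19 passed (smallest adjusted p = 0.093), where 1.30% of all probes did, and 3 of the 19 had an unadjusted p under 0.05, as had 18.6% of all probes. Averaged over both lines 1 of the 19 passed, against 6.45% of all probes. No SR probe passed for a difference between the silencing effects in MDAH and SKOV3 cells (smallest adjusted p = 0.306), where 0.145% of all probes passed and 1 SR probe had an unadjusted p under 0.05, as had 13.9% of all probes. The share of SR probes called was thus near that of all probes in each silencing contrast. The median log2 change of the 19 probes was 0.03 in MDAH cells, beside 0.07 for all probes, and -0.18 in SKOV3 cells, beside -0.03. In MDAH cells 11 SR probes lay above 0 and 8 below, and in SKOV3 cells 5 lay above and 14 below. Of all probes, 43.8% lay below 0 in MDAH cells and 52.7% in SKOV3 cells. The MDAH count of SR probes depended on the scaling. With arrays centred on their medians 3 lay below 0, with quantile normalization 10, and with the percentile over probes detected on all arrays 12. The median of the SR probes was then 0.15, -0.10 and -0.09, beside 0.18, 0.04 and -0.05 for all probes, which thus moved too. In SKOV3 cells 13 to 15 SR probes lay below 0 under these scalings.

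**Figure D1:**
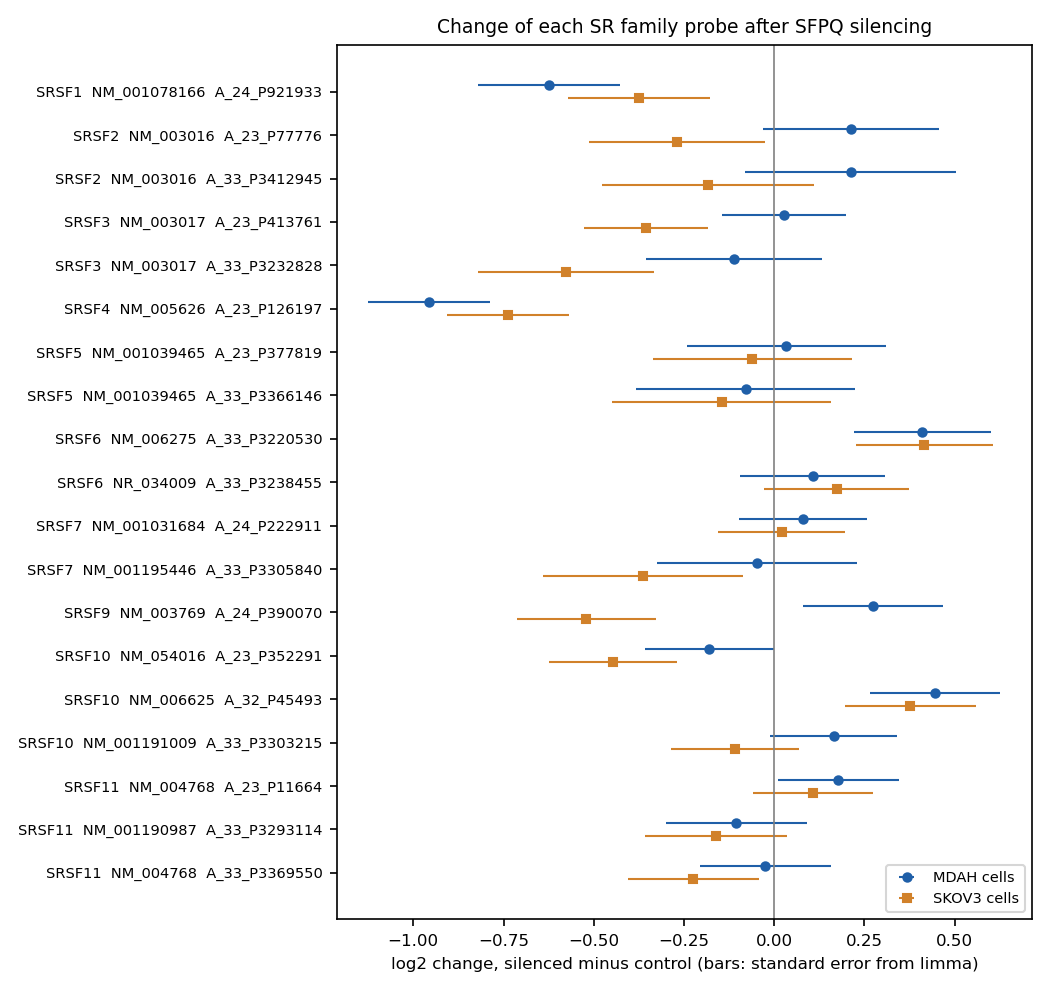
Log2 change after SFPQ silencing (silenced minus control, x axis) of each SR probe in MDAH cells (blue circles) and SKOV3 cells (orange squares), with the limma standard error as bars. The SRSF4 probe lies farthest to the left in both lines, at -0.96 and -0.74, and the probes of SRSF6 (NM_006275) and SRSF10 (NM_006625) lie to the right in both, between 0.38 and 0.45.

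SRSF4 (also known as SRp75) carries a pair of RNA recognition motifs and a long serine-arginine tail, and was measured by 1 probe (A_23_P126197, NM_005626). Its log2 level was 4.66 on both MDAH control arrays and 3.85 and 3.56 with sh-SFPQ#2 and sh-SFPQ#3. In SKOV3 cells the level was 5.31 and 5.21 in controls and 4.57 and 4.48 with sh-SFPQ#2 and sh-SFPQ#3. Silenced and control arrays did not overlap in either line, and the silenced SKOV3 arrays lay just under the MDAH controls. The group means of the level went from 5.26 ± 0.07 (SD, n = 2 arrays) to 4.52 ± 0.06 in SKOV3 cells and from 4.66 to 3.70 ± 0.20 in MDAH cells. In MDAH cells SRSF4 fell by 0.96 on the log2 scale (SE 0.17, adjusted p = 0.0383 from limma), to 0.515 of the control signal. In SKOV3 cells its log2 change was -0.74 (95% confidence interval -1.14 to -0.34, adjusted p = 0.093 from limma), which did not pass. Over both lines it fell by 0.85 on the log2 scale (SE 0.12, adjusted p = 0.0149 from limma), to 0.556 of the control signal. The changes in MDAH and SKOV3 cells were not distinguishable from each other (difference -0.22, 95% confidence interval -0.78 to 0.35, adjusted p = 0.694 from limma). Both shRNAs gave this direction in each line, and sh-SFPQ#3 differed from sh-SFPQ#2 by -0.19 on the log2 scale (SE 0.14, adjusted p = 0.516 from limma). The arrays measured bulk RNA, so that less of a transcript per cell and fewer cells holding it cannot be told apart.

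The calls of SRSF4 rested on few arrays. For MDAH cells the adjusted p (limma) was 0.264 with MDAH control 1 left out, 0.202 with MDAH control 2, 0.123 with MDAH sh-SFPQ#3, 0.0821 with either SKOV3 control and 0.0541 with either silenced SKOV3 array, none of which passed, and 0.0286 with MDAH sh-SFPQ#2 left out. Averaged over both lines it rose to 0.0864 without MDAH control 1, 0.0737 without MDAH control 2 and 0.0592 without SKOV3 control 1, and passed without any of the other 5. The size of the change varied less. With 1 array left out it ran from -1.10 to -0.81 for MDAH cells and from -0.92 to -0.77 for the average. With every array centred on its median the MDAH change was -0.84, beside a median of 0.18 over all probes, and did not pass (adjusted p = 0.0814 from limma).

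The bases upstream of the SRSF4 start are shown because this was the only member called after silencing. They were read from RefSeq (GRCh38.p14, chr1:29181901-29182150, minus strand), 250 bases ending at the annotated start, with the letters of a GC box in capitals.
SRSF4 upstream: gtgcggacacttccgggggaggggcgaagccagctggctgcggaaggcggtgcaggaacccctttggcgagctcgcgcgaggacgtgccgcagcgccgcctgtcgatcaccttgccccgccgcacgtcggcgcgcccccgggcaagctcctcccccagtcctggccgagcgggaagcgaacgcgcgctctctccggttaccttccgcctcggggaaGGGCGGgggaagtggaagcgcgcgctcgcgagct
Windows of this kind were found for 9 of the 10 genes, 11 in all. On both strands of these windows 4 motifs were searched, each counted on its own: the GC box GGGCGG, the CCAAT box CCAAT, the TATA box TATAAA and the cAMP response element TGACGTCA. The GC box was present in 4 of the 11 windows and in 42.6% of 35116 windows of all genes. Both windows of SRSF7 were among these 4, and they overlap and share GC boxes. The CCAAT box was present in 1 of 11 (32.0% of all), the TATA box in 3 of 11 (10.7% of all) and the cAMP response element in none (1.65% of all). A match was counted at any distance from the start. The TATA box match of SRSF11 lay on the opposite strand, near the end of the window far from the start. SRSF4 had 1 GC box and no other of these motifs.

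**Figure D2:**
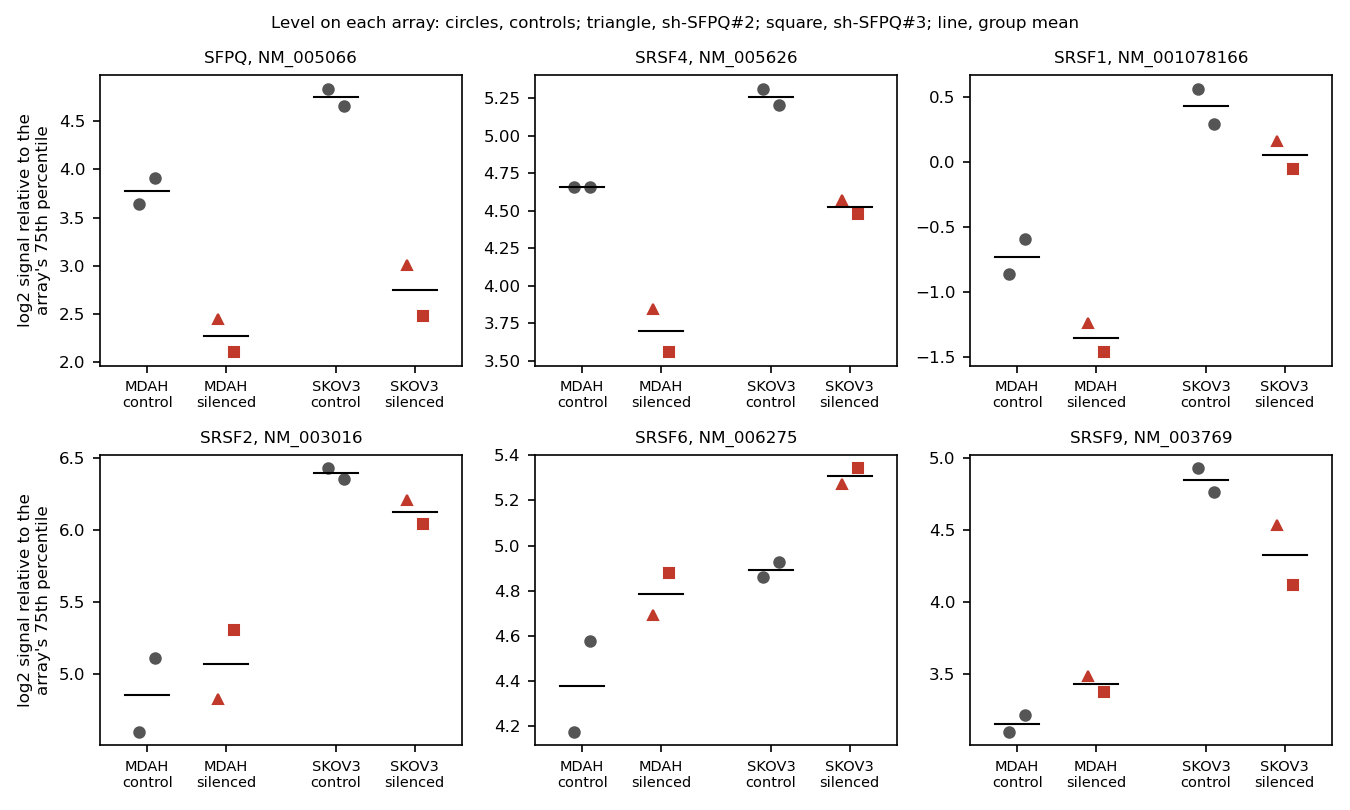
Log2 level relative to the 75th percentile of each array (y axis, a separate range in each panel) of SFPQ and 5 SR probes in controls (grey circles), with sh-SFPQ#2 (red triangles) and with sh-SFPQ#3 (red squares); black lines are group means. SRSF4 follows the order of SFPQ, with all silenced arrays under their controls, SRSF1 shows the same order with smaller gaps, SRSF6 the opposite order, and SRSF9 lies above the controls in MDAH cells and under them in SKOV3 cells.

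On single arrays, 3 SR probes were lower on all 4 silenced arrays than on both controls of their line, those of SRSF1, SRSF4 and SRSF10 (NM_054016), where 10.3% of all probes were. The opposite order was found for 2 SR probes, of SRSF6 (NM_006275) and SRSF10 (NM_006625), where 11.3% of all probes had it. Both counts lie near the share among all probes.

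SRSF1 (ASF/SF2), the prototype of the family and a regulator of both constitutive and alternative splicing, was measured only by the probe of NM_001078166. Its signal, 88.4 to 646 before scaling, was dim beside that of most SR probes. Its log2 level was -0.87 and -0.59 in MDAH controls and -1.24 and -1.46 with sh-SFPQ#2 and sh-SFPQ#3. In SKOV3 cells it was 0.56 and 0.29 in controls and 0.16 and -0.06 with sh-SFPQ#2 and sh-SFPQ#3. All silenced arrays were under their controls, by a narrow margin in SKOV3 cells. The log2 change was -0.62 in MDAH cells (SE 0.20, adjusted p = 0.144 from limma), -0.37 in SKOV3 cells (SE 0.20, adjusted p = 0.36) and -0.50 on average (95% confidence interval -0.83 to -0.17, adjusted p = 0.0835), and none of these passed. Under the other scalings, background corrections, filters and designs the MDAH change lay between -0.74 and -0.31.

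SRSF6 (SRp55), another member with a pair of RNA recognition motifs, had 1 probe for its coding transcript (NM_006275) and 1 for a non-coding RefSeq transcript (NR_034009). The coding probe had a log2 level of 4.17 and 4.58 in MDAH controls and 4.69 and 4.88 with sh-SFPQ#2 and sh-SFPQ#3. In SKOV3 cells it had 4.86 and 4.93 in controls and 5.27 and 5.34 with sh-SFPQ#2 and sh-SFPQ#3. Each silenced array was above the controls of its line. For the coding probe the log2 change was 0.41 in MDAH and 0.42 in SKOV3 cells, and their average of 0.41 did not pass (SE 0.13, adjusted p = 0.117 from limma). The probe of the non-coding transcript lay between -1.57 and -1.06 on all 8 arrays with its MDAH groups overlapping, and its average change was 0.14 (95% confidence interval -0.20 to 0.48, adjusted p = 0.582 from limma).

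SRSF9 (SRp30c), a shorter relative of SRSF1, was measured by the probe of NM_003769. Its log2 level was 3.10 and 3.22 in MDAH controls and 3.49 and 3.38 with sh-SFPQ#2 and sh-SFPQ#3. In SKOV3 cells it was 4.93 and 4.77 in controls and 4.53 and 4.12 with sh-SFPQ#2 and sh-SFPQ#3. The silenced arrays were above the controls in MDAH cells and below them in SKOV3 cells. The log2 change was 0.27 in MDAH cells (adjusted p = 0.45 from limma) and -0.52 in SKOV3 cells (adjusted p = 0.221). The test of the difference between the lines gave 0.80 (SE 0.27, unadjusted p = 0.0235, adjusted p = 0.306 from limma), which did not pass.

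SRSF5 (SRp40) had 2 probes with the same accession (NM_001039465). The first (A_23_P377819) had a log2 level of 4.19 and 4.61 in MDAH controls and 4.09 and 4.77 with sh-SFPQ#2 and sh-SFPQ#3, and the second (A_33_P3366146) had 4.25, 4.68, 3.99 and 4.78. In SKOV3 cells the first had 4.17 and 4.11 in controls and 3.92 and 4.24 with sh-SFPQ#2 and sh-SFPQ#3, and the second had 4.18, 4.13, 3.81 and 4.20. In both lines the level was below the controls with sh-SFPQ#2 and above them with sh-SFPQ#3, on both probes. The changes averaged over both lines were -0.01 and -0.11 (95% confidence intervals -0.48 to 0.45 and -0.62 to 0.40, adjusted p = 0.974 and 0.784 from limma). SRSF5 had the highest difference between the shRNAs among the members, with sh-SFPQ#3 above sh-SFPQ#2 by 0.50 on the first probe (SE 0.20, adjusted p = 0.246 from limma) and by 0.59 on the second (SE 0.20, adjusted p = 0.191). No SR probe passed for a difference between sh-SFPQ#3 and sh-SFPQ#2, where 2.15% of all probes did, and 3 of the 19, both SRSF5 probes and the SRSF7 probe of NM_001195446 (-0.50), had an unadjusted p under 0.05, as had 19.3% of all probes.

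SRSF2 (SC35), which carries a single recognition motif and is the member that the study followed for caspase-9 splicing, had 2 probes with the same accession (NM_003016). On the first (A_23_P77776) the log2 level was 4.60 and 5.11 in MDAH controls and 4.83 and 5.31 with sh-SFPQ#2 and sh-SFPQ#3. In SKOV3 cells it was 6.43 and 6.36 in controls and 6.21 and 6.04 with sh-SFPQ#2 and sh-SFPQ#3. The MDAH groups overlapped, and both silenced SKOV3 arrays were below their controls. The log2 change was 0.21 in MDAH cells (95% confidence interval -0.37 to 0.79) and -0.27 in SKOV3 cells (95% confidence interval -0.85 to 0.31), with adjusted p = 0.651 and 0.582 from limma. On the second probe (A_33_P3412945) the level was 1.80 and 2.57 in MDAH controls and 2.29 and 2.501 with sh-SFPQ#2 and sh-SFPQ#3, and 3.61, 3.73, 3.73 and 3.25 in SKOV3 cells. Its changes, 0.21 and -0.18, had the signs of the first probe, and its groups overlapped in both lines. Averaged over both lines the 2 probes gave -0.03 (95% confidence interval -0.44 to 0.38) and 0.01 (-0.48 to 0.51), so that an average change within these intervals is not excluded. The lines had opposite signs on both probes, so these averages do not bound the change of SRSF2 RNA in either line.

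SRSF3 (SRp20) and SRSF7 (9G8) are small members that also act in mRNA export, and SRSF7 carries a zinc knuckle beside its recognition motif. The first SRSF3 probe (A_23_P413761, NM_003017) had a log2 level of 5.32 and 5.62 in MDAH controls and 5.51 and 5.49 with sh-SFPQ#2 and sh-SFPQ#3, and of 6.61, 6.48, 6.25 and 6.13 in SKOV3 cells. The second (A_33_P3232828) had 3.68 and 4.07 in MDAH controls and 3.46 and 4.06 with sh-SFPQ#2 and sh-SFPQ#3, and 4.62, 4.66, 4.03 and 4.09 in SKOV3 cells. On both probes the SKOV3 groups did not overlap, and the MDAH groups did. The changes in SKOV3 cells were -0.35 (95% confidence interval -0.76 to 0.05, adjusted p = 0.324 from limma) and -0.58 (SE 0.24, adjusted p = 0.271), and in MDAH cells 0.03 and -0.11. For SRSF7, the probe of NM_001031684 had levels of -0.17 and 0.02 in MDAH controls and -0.15 and 0.16 with sh-SFPQ#2 and sh-SFPQ#3, and of 1.79, 1.69, 1.78 and 1.75 in SKOV3 cells. The probe of NM_001195446 had 4.02, 4.46, 4.35 and 4.03 in MDAH cells and 5.04, 5.12, 5.05 and 4.38 in SKOV3 cells, in the same order of arrays. The SRSF7 groups overlapped in both lines on both probes, and the average changes were 0.05 (95% confidence interval -0.25 to 0.35) and -0.21 (-0.67 to 0.26), with adjusted p = 0.835 and 0.555 from limma.

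SRSF10 (SRp38) acts as a splicing repressor when dephosphorylated, and was measured by 3 probes with 3 accessions. The probe of NM_006625 had a log2 level of 3.38 and 3.76 in MDAH controls and 3.97 and 4.07 with sh-SFPQ#2 and sh-SFPQ#3, and of 4.08, 4.11, 4.42 and 4.52 in SKOV3 cells. The probe of NM_054016 had 1.13 and 1.22 in MDAH controls and 0.88 and 1.12 with sh-SFPQ#2 and sh-SFPQ#3, and 2.33, 2.04, 1.70 and 1.78 in SKOV3 cells. The first was higher and the second lower on every silenced array than on the controls of its line. The third, of NM_001191009, had 1.90, 2.15, 2.14 and 2.24 in MDAH cells and 2.64, 2.60, 2.65 and 2.37 in SKOV3 cells, and its silenced and control arrays overlapped in both lines. Taken singly, no SRSF10 probe passed, with average log2 changes of 0.41 (SE 0.13, adjusted p = 0.106 from limma), -0.31 (SE 0.13, adjusted p = 0.186) and 0.03 (SE 0.13, adjusted p = 0.912).

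The 2 SRSF10 probes were also compared within each array, which takes out the scaling of the array. The log2 signal of NM_054016 minus that of NM_006625 was -2.25 and -2.54 in MDAH controls and -3.09 and -2.95 with sh-SFPQ#2 and sh-SFPQ#3. In SKOV3 cells the difference was -1.75 and -2.06 in controls and -2.73 with each shRNA. The difference was farther from 0 on every silenced array than on the controls of its line. limma was then fitted to this difference for every pair of probes of a gene, 7711 pairs in 4111 genes, a fit chosen after the data were seen. Averaged over both lines the SRSF10 difference fell by 0.72 on the log2 scale (SE 0.12, adjusted p = 0.028 from limma), so that the ratio of NM_054016 to NM_006625 signal fell to 0.605 of its control value. Among 11 pairs of SR probes 1, this one, passed, where 5.84% of all pairs did. In MDAH cells alone the change was -0.63 (SE 0.17, adjusted p = 0.141 from limma) and in SKOV3 cells -0.82 (SE 0.17, adjusted p = 0.0934), and neither passed, where 1.48% and 0.441% of all pairs did. Scalings that shift a whole array cancel in this difference, so they could not test the call. The limma call was kept with quantile normalization, normexp background correction, outlier spots kept, the authors' log2 values and the other designs fitted. It was lost without MDAH control 1 (adjusted p = 0.115), MDAH control 2 (0.083), MDAH sh-SFPQ#3 (0.056), SKOV3 control 1 (0.101), SKOV3 control 2 (0.0622) or SKOV3 sh-SFPQ#3 (0.0762), with changes between -0.80 and -0.65. A ratio within an array shows unequal change of the 2 probes, not which of them changed.

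**Figure D3:**
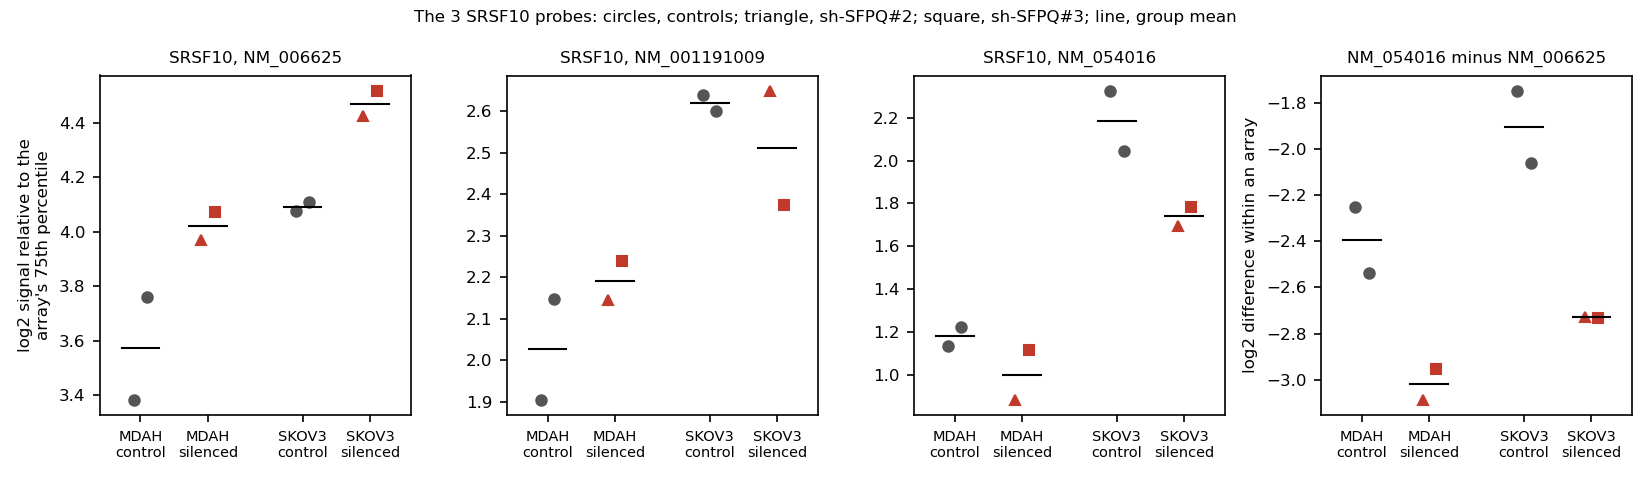
Log2 level of the 3 SRSF10 probes and, in the last panel, the log2 difference of NM_054016 minus NM_006625 within an array (y axes, a separate range in each panel), in controls (grey circles), with sh-SFPQ#2 (red triangles) and with sh-SFPQ#3 (red squares); black lines are group means. The NM_006625 probe is above and the NM_054016 probe below the controls on every silenced array, and the difference between them does not overlap in either line.

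Among all 11 pairs of probes of 7 SR genes, 7 had every silenced array on 1 side of the controls, the same side in both lines, where 21.5% of all pairs did. These were all 3 pairs of SRSF10, the pair of SRSF5, the pair of SRSF6 and 2 pairs of SRSF11. The 3 SRSF10 pairs share probes, and both SRSF11 pairs hold A_23_P11664, so the 7 pairs are not independent. Averaged over both lines, only the SRSF10 pair tested above passed in limma. The coding probe of SRSF6 gained 0.27 over the non-coding one (adjusted p = 0.138 from limma), and SRSF11 probe A_23_P11664 gained 0.27 over A_33_P3369550 (adjusted p = 0.141), although both carry the accession NM_004768. The 2 probes of SRSF2 differed in their average change by -0.04 (SE 0.13), and those of SRSF5 by 0.10 (SE 0.08). RefSeq gives 1 window for the start of SRSF10 (GRCh38.p14, chr1:23980328-23980577, minus strand), shown because all 3 probes refer to this gene, and it holds no match to the 4 motifs searched, so that no letters are in capitals.
SRSF10 upstream: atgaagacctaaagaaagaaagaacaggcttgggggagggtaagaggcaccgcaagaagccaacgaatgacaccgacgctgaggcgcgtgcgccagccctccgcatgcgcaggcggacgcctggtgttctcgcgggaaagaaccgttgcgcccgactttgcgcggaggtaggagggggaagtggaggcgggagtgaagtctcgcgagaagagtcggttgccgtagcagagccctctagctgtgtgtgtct

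SRSF11 (p54), an SR protein of nuclear speckles, had 3 probes. The probe A_23_P11664 (NM_004768) had a log2 level of 3.83 and 3.75 in MDAH controls and 3.84 and 4.08 with sh-SFPQ#2 and sh-SFPQ#3, and of 3.11, 3.02, 3.09 and 3.25 in SKOV3 cells. The probe of NM_001190987 had 4.31, 4.26, 3.98 and 4.38 in MDAH cells and 3.02, 3.002, 2.99 and 2.71 in SKOV3 cells, and A_33_P3369550 had 3.27, 3.13, 3.04 and 3.31 and then 2.45, 2.21, 2.05 and 2.17. On each probe the MDAH arrays lay above the SKOV3 arrays. The average changes after silencing were 0.14, -0.13 and -0.12 (SE between 0.12 and 0.14, adjusted p between 0.494 and 0.594 from limma).

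The 2 lines differed in most SR probes before any silencing. In MDAH minus SKOV3 controls, 15 of the 19 probes passed, 12 lower and 3 higher in MDAH cells, where 51.8% of all probes passed. They belonged to 8 of the 10 genes. The 3 higher ones were the SRSF11 probes, with log2 differences of 1.27 (SE 0.20, adjusted p = 0.00179 from limma) for NM_001190987, 0.87 for A_33_P3369550 and 0.72 for A_23_P11664. The lowest was SRSF7 (NM_001031684), at -1.81 (SE 0.18, adjusted p = 0.000244 from limma), a signal 0.284 of that in SKOV3 cells. SRSF9 followed with -1.69 (SE 0.19, adjusted p = 0.000495), the SRSF2 probes with -1.54 and -1.49 (SE 0.24 and 0.29), SRSF1 with -1.16 (SE 0.20), SRSF3 with -1.07 and -0.77, SRSF10 with -1.01, -0.59 and -0.52 and SRSF4 with -0.60 (SE 0.17, adjusted p = 0.0212). The second SRSF7 probe (NM_001195446) differed by -0.84. Of the 4 probes that did not pass, the coding probe of SRSF6 had -0.52 (adjusted p = 0.0573), its non-coding probe -0.07, and the SRSF5 probes 0.26 and 0.31 (adjusted p = 0.47 and 0.427 from limma).

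**Figure D4:**
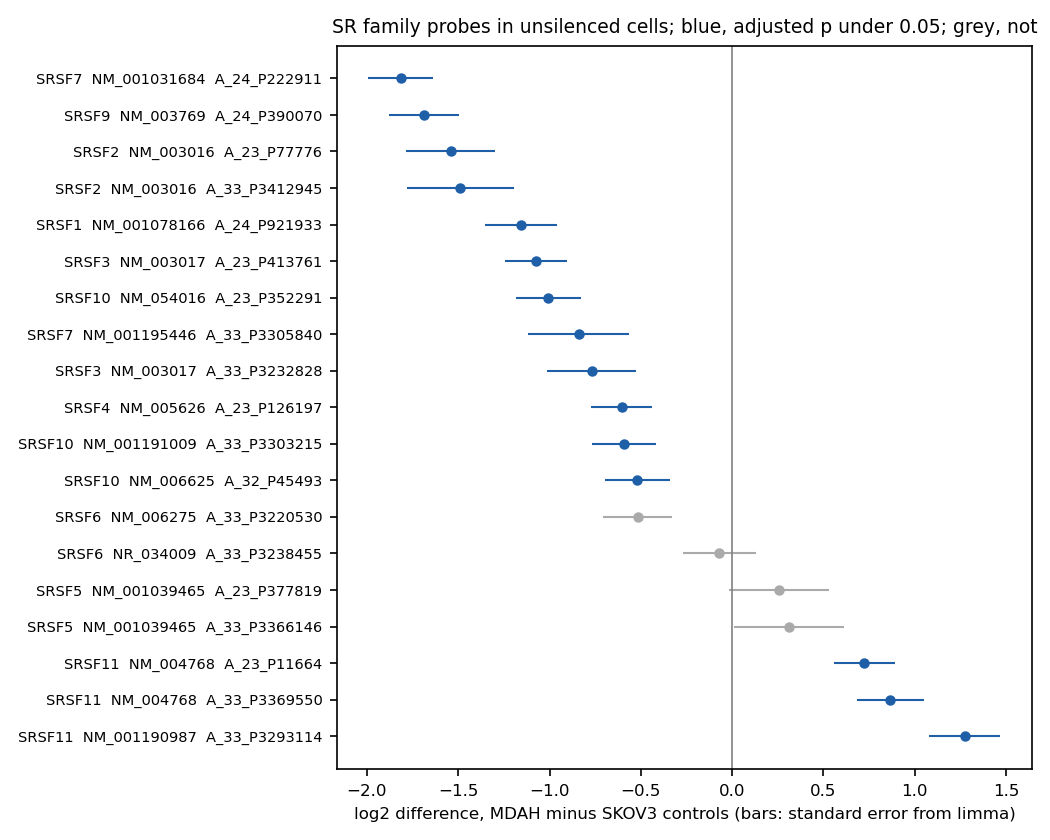
Log2 difference between MDAH and SKOV3 controls (MDAH minus SKOV3, x axis) of each SR probe, ordered by its value, with the limma standard error as bars; blue marks an adjusted p under 0.05. The 3 SRSF11 probes stand at the right, from 0.72 to 1.27, and 12 probes from -0.52 down to -1.81 passed at the left.

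The median difference of the SR probes between the lines was -0.60, beside 0.01 for all probes. Under the other scalings this was -0.76 beside -0.14 (each array centred on its median), -0.40 beside 0.21 (75th percentile over probes detected on all arrays) and -0.42 beside 0.01 (quantile normalization), so that the median stayed under that of all probes in each. Under all settings run and with any 1 array left out, 8 of the 15 calls were kept, those of SRSF1, both SRSF2 probes, SRSF3 A_23_P413761, SRSF7 NM_001031684, SRSF9, SRSF10 NM_054016 and SRSF11 NM_001190987. Without SKOV3 control 2 the count was 8 and without MDAH control 1 it was 9. SRSF4, the second probes of SRSF3 and SRSF7 and the SRSF10 probes of NM_006625 and NM_001191009 did not pass with quantile normalization.

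The proteins that work with the SR family were followed through 4 gene lists, each gene with its brightest probe. The counts of these lists at an unadjusted p under 0.05 are to be read against 21.5% of all probes in MDAH cells, 18.6% in SKOV3 cells and 24.9% on average. Of 29 other SR-related splicing proteins none passed in limma in MDAH cells, in SKOV3 cells or on average (1, 4 and 3 had an unadjusted p under 0.05), and the median average change was 0.03. The highest were U2SURP, a protein of the U2 snRNP, at 0.75 (adjusted p = 0.0809 from limma), and LUC7L, a U1-associated factor, at 0.42 (adjusted p = 0.0737). The lowest were TRA2B, an SR-like activator, at -0.30 and THRAP3 at -0.21. Of the kinases, phosphatases and the nuclear importer of SR proteins, 11 of 13 were tested and none passed (1, 3 and 3 with an unadjusted p under 0.05), with CLK2 at 0.38, CLK4 at 0.31, SRPK2 at -0.51 and CLK3 at -0.27 as the extremes.

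Of 15 genes of nonsense-mediated decay and the exon junction complex, the routes by which SR genes limit themselves, none passed with the brightest probe (1, 1 and 2 with an unadjusted p under 0.05 in MDAH cells, SKOV3 cells and the average). In SKOV3 cells 13 of the 15 lay below 0, with a median of -0.17, and in MDAH cells 12 lay above 0, with a median of 0.17, beside -0.03 and 0.07 for all probes. The extremes by average change were SMG8 at 0.36, EIF4A3 at 0.06, SMG6 at -0.49 and SMG1 at -0.19. Most of the dimmer probes of SMG1 had a positive average change, from 0.10 to 0.27, and the rest had -0.21 and -0.06. A second, dimmer probe of MAGOHB, a subunit of the junction complex, rose by 0.70 on average (SE 0.12, adjusted p = 0.0234 from limma), whereas its brightest probe had a change of -0.02. Among 11 transcripts whose splicing SR proteins are known to regulate none passed (2, 3 and 4 with an unadjusted p under 0.05). The highest were MKNK2, a kinase of eIF4E, at 0.71 (adjusted p = 0.084 from limma) and MST1R, the RON receptor, at 0.55 (adjusted p = 0.0722), and the lowest PKM at -0.16 and BIN1 at -0.07. Each of these values is the level of 1 probe, which does not measure a ratio of spliced forms. The paper measured that ratio for caspase-9 by RT-PCR and reported a rise after long-term SFPQ silencing in both lines.

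The genes with the most similar pattern over the 8 arrays were taken by the root mean square difference of centred log2 levels, among 12382 genes. For SRSF4 these were RHOT1, a mitochondrial GTPase (0.10), FANCC, of the Fanconi anaemia core complex (0.13), and RALGPS2 (0.13), where the median over all genes was 0.68. For SRSF2 they were SMARCD1, a subunit of SWI/SNF complexes (0.08), ARLN (0.10) and PRPF38A, a spliceosome component (0.10). The nearest SR genes were SRSF1 for SRSF4 (0.34, rank 336) and SRSF9 for SRSF2 (0.21, rank 228). These likenesses describe 8 arrays that share 2 lines and were not tested.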

How the data were processed

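Per the file headers, the authors scanned 1 slide and deposited for each spot an intensity from which Agilent Feature Extraction had subtracted background and spatial trends, without normalization between arrays. The headers name version 11.5.1.1 and the submitters' processing notes 10.7.3.1. The labels give 0.1 µg RNA per labelling. A second file deposited by the authors holds log2 values, which correlated on each array with quantile-normalized, probe-centred signals (r above 0.999) and served as an alternative.

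From the 62976 spots per array, control spots and outlier spots (209 to 310) were removed, each probe's spots were averaged as log2 values, and the array's 75th percentile was subtracted. Probes were named through RefSeq accessions (28174 of 30878 matched). The 29021 of 50599 probes with both arrays of any 1 group well above background were fitted in R 4.3.3 with limma 3.58.1, with a mean for each of the 4 groups, 4 residual degrees of freedom and a prior of 2.76. The comparison of the shRNAs added a shared shRNA term. p-values were adjusted by Benjamini-Hochberg over all probes tested, with 0.05 as the threshold. The precision is limited by the number of arrays, 2 in each group.

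The members, lists, tests and the rule for named genes (every member probe, SFPQ and partners, list genes that passed or were the 2 highest and 2 lowest, and the 3 nearest genes) were chosen with earlier results of these data known. The fit was tested on simulated data. Alternatives were other scalings, background corrections, filters, probe choices, designs and leaving out each array. Promoter windows and names came from RefSeq (GRCh38.p14). Array annotation was on GRCh37, so none of its coordinates were used.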

Additional observations from a re-analysis of the deposited data

How the results depend on the processing

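In MDAH cells the count of SR probes called was 0 under centring of arrays on their medians, 0 without a filter on dim probes and 0 with MDAH arrays fitted on their own, in place of 1, and it ranged from 0 to 1 as each array was left out. In SKOV3 cells it was 1, SRSF4, with normexp background correction (adjusted p = 0.0486 from limma) and 1 with a variance trend (0.0394), in place of 0. The averaged count ranged from 0 to 1 as arrays were left out. The count between the lines was 9 with 1 probe per gene, of 10 probes, and ranged from 8 to 14 as arrays were left out. Over all other alternatives these counts kept within 1.5 times of the reported ones. For the difference between the silencing effects in MDAH and SKOV3 cells, and for that between the shRNAs, the counts were 0 throughout. Of 2150 alternative values of SR probes, 127 changed sign and none of these was a called value. Among all probes called in MDAH cells 611 of 780 were lower, and 438 of 743 with median centring; on average 1195 of 1871 were lower, and 928 of 1820 with median centring. With the control number and the shRNA number as a replicate block over both lines, the counts were 1 in MDAH cells, 0 in SKOV3 cells, 1 on average and 14 between the lines, where the SRSF10 probe of NM_006625 was lost. The numbers are shared labels and not known pairs: across probes, the difference of shRNA 3 and shRNA 2 in MDAH cells correlated with that in SKOV3 cells at r = 0.35, and the difference of the controls at 0.071. Within a line the groups share 1 number, so no pairing was possible there. The slide could not be a block, as there was 1. With 2 arrays per group, standard errors of 0.17 to 0.30 in a line limit what could be called.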

Other observations

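The partners of SFPQ were measured on the same arrays. NONO, which forms heterodimers with SFPQ, had 2 probes with average log2 changes of -0.08 (SE 0.13, adjusted p = 0.756 from limma) and 0.10 (SE 0.11, adjusted p = 0.593) after silencing. Their changes were 0.17 and 0.40 in MDAH cells and -0.32 and -0.19 in SKOV3 cells, and none of these passed. These are RNA levels, whereas the paper reported less p54nrb, the NONO protein, by western blot after long-term silencing. PSPC1, the third protein of this family, had 0.46 (SE 0.21, adjusted p = 0.224), and neither gene passed.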
